A study of Mus musculus with 6 samples.

Results

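The 10 genes of vitamin uptake and cubilin endocytosis were taken by symbol from the 23390 genes of the count table, namely the cubilin endocytosis genes Cubn, Amn and Dab2, the cobalamin carrier Tcn2, the folate transporters Slc46a1 and Slc19a1, the thiamine transporters Slc19a2 and Slc19a3, the biotin transporter Slc5a6 and the ascorbate transporter Slc23a1. All 10 had a row, and 8 passed the filter on low counts. Dab2 and Slc19a3 did not. RNA came from FACS-sorted small-intestinal epithelial cells of C57BL/6 mice, negative for CD45, a leukocyte surface protein, and positive for EpCAM, an epithelial one. There were 3 libraries from Vil.Cre Maf.flox mice, in which Cre under the villin promoter deletes floxed Maf in intestinal epithelium, and 3 from Maf.flox control mice. Both groups carried the Maf.flox allele, and no group carried Cre alone, so an effect of Cre and loss of c-Maf cannot be told apart. Neither age nor region of the small intestine was labelled.

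Cobalamin reaches the enterocyte bound to intrinsic factor. Cubilin, a large extracellular protein without its own membrane anchor, binds this complex in the ileum, and amnionless anchors cubilin in the membrane and carries it to the cell surface. Together they form the receptor called cubam, which clathrin adaptors such as Dab2 help to internalise, best known from the kidney. Inside the cell cobalamin is passed to transcobalamin, the Tcn2 product, for transport in blood. Folate, thiamine, biotin and ascorbate instead enter through solute carriers of the apical or basolateral membrane. Ascorbate is not a B vitamin, and its transporter is included by the definition of the gene set.

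Libraries held 17464355 to 24802525 counts. Maf itself, which checks the labels, had 16, 1 and 1 counts in the Vil.Cre Maf.flox libraries, against 9398, 5615 and 3893 in the Maf.flox libraries. Counts of Xist and Y-linked genes gave 1 female and 2 male Vil.Cre Maf.flox libraries, against 2 female and 1 male Maf.flox libraries. The labels do not say that each library is 1 mouse. Both sexes occurred in each group, so each group held more than 1 mouse, but libraries of the same sex may share one. Each p-value covers the spread among these libraries, part of which may be technical. Maf.flox replicate 3 stood apart from its group, with a chi-square per gene of 135 and 62.6 against the other controls and 38.4 between those. Values without it are given where they change a call. Epcam, the gene of the protein sorted for, was at 1920 to 2230 CPM in Vil.Cre Maf.flox and 2000 to 2310 CPM in Maf.flox libraries. Ptprc, which encodes CD45, was at 0.101 to 0.587 CPM and 0.285 to 2.29 CPM. Leukocyte markers, 9 of 10 listed genes with a row, summed to 26.1 to 33.2 CPM and 20.2 to 30.8 CPM. Epcam and Ptprc check the sort and are not independent of it. CPM here is the usual per-library scaling of counts, with library sizes corrected for composition by TMM.

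None of the 8 tested genes passed an adjusted p of 0.05 over all 13740 genes by edgeR's quasi-likelihood test. Over all genes 0.546% passed, 0.357% with a lower level in Vil.Cre Maf.flox and 0.189% with a higher one. An unadjusted p under 0.05 was found for 5 of the 8, Cubn, Tcn2, Amn, Slc5a6 and Slc23a1, all lower in Vil.Cre Maf.flox, where 9.25% of all genes had such a p in that direction. DESeq2 called 3 of the 8 lower, Cubn, Tcn2 and Slc23a1, against 3.54% of all genes lower, 2.1% higher and 5.64% in either direction. Limma-voom called 0, against 0.153% of all genes lower. The log2 fold change was below 0 for 7 of the 8, as for 51.6% of all genes, with a median of -0.64, while the median over all genes was -0.01. All 8 had at least 66 counts in every library. In bulk RNA, fewer cells of a type and less RNA per cell cannot be told apart, and enterocyte markers are set beside these values further on.

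**Figure D1:**
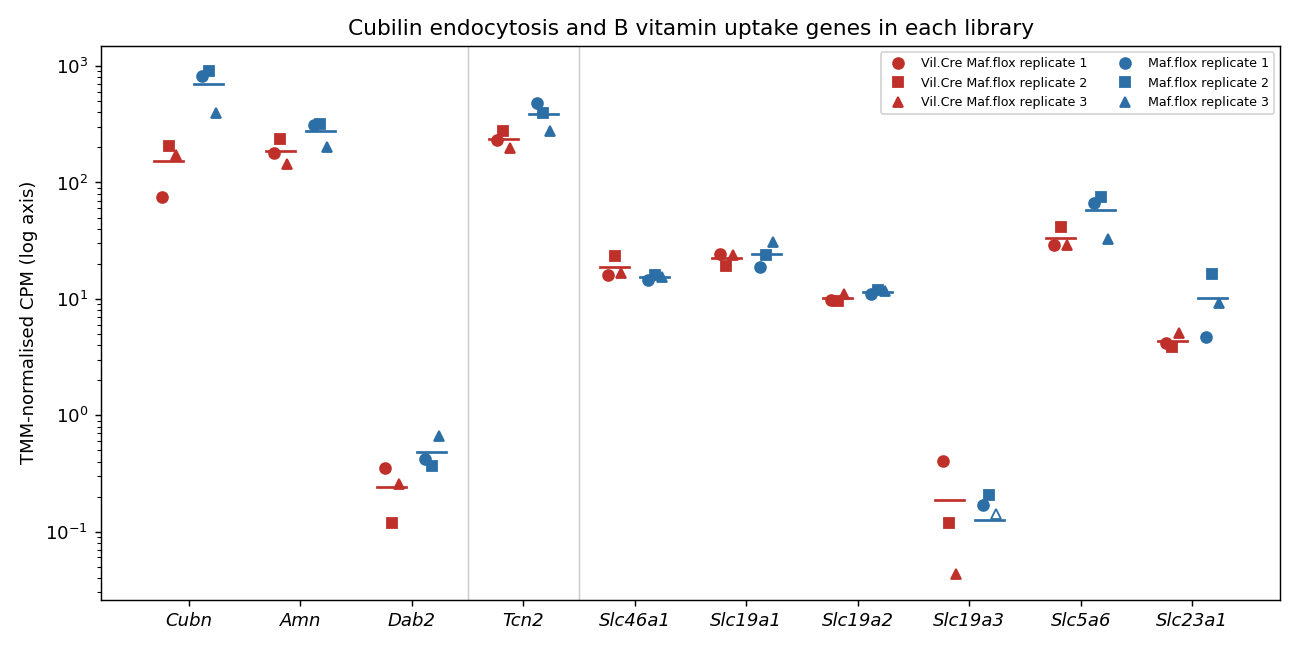
TMM-normalised CPM (log axis) of the 10 genes in each library, Vil.Cre Maf.flox in red left of Maf.flox in blue, with bars at group means and grey lines setting Tcn2 apart from the cubilin endocytosis genes and the transporters. The open symbol marks 0 counts, drawn at the level of 3 counts, and Cubn shows the widest gap between groups.

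Cubn (ENSMUSG00000026726) spans 13276338 to 13491813 on the minus strand of chromosome 2 of GRCm38, and Amn (ENSMUSG00000021278) spans 111271095 to 111276426 on the plus strand of chromosome 12. The 250 bases before each transcript start are shown because the 2 genes encode both subunits of 1 receptor and had unlike fold changes, of -2.22 and -0.57 on the log2 scale. They are RefSeq sequences of GRCm38.p6, at chr2:13491877-13492126, minus strand, and chr12:111270846-111271095, plus strand. Capitals mark TGCTGA, the core of the sites that Maf proteins bind.
Cubn: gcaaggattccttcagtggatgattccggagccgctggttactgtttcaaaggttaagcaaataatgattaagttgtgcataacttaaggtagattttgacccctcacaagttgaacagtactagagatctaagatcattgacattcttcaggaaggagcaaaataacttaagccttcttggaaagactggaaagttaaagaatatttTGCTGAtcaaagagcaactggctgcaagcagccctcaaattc
Amn: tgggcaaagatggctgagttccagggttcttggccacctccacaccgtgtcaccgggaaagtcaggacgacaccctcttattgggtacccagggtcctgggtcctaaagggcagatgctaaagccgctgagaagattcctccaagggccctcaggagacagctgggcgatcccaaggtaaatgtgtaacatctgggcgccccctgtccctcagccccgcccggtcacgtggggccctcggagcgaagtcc

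The Cubn stretch held 39.6% G or C and the Amn stretch 61.2%. TGCTGA, searched on both strands after the sequences had been read, began 42 bases before the RefSeq start of Cubn and had no match in the Amn window. That start, at 13491876, lies 63 bases upstream of the gene's start in the deposited table. TGCTGA was found in 3 of 11 promoter windows of these genes, those of Cubn and Slc19a3 and 1 of Dab2. It was also in 19.5% of the 32851 RefSeq windows of 300 bases, from 250 before to 50 after each start. The longer site TGCTGAC, which contains it, was in 1 of the 11 windows, that of Slc19a3, and in 4.67% of all windows. The full palindromic Maf recognition elements, with 1 or 2 bases between their arms, had no match in the 11 windows and were in 0.00609% of all windows each. The Hnf4 letters CAAAGTCCA, the Hnf1 palindrome and the Cdx letters TTTATG had no match either, with 0.475%, 0.00913% and 11.9% of all windows holding them. AGATAA for Gata was in 1 of the 11, a Dab2 window, and in 11.2% of all. The 11 windows belonged to 8 of the 10 genes, and Tcn2 and Slc23a1 had no window and were not searched.

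Cubn had 74.7, 208 and 173 CPM in Vil.Cre Maf.flox replicates 1, 2 and 3, against 828, 906 and 392 CPM in Maf.flox replicates 1, 2 and 3. All Vil.Cre Maf.flox libraries lay below all Maf.flox libraries, and within the groups Vil.Cre Maf.flox replicate 1 and Maf.flox replicate 3 were lowest. The means were 151.9 ± 69 and 708.9 ± 277 CPM (SD, n = 3 each), 4.67 times lower in Vil.Cre Maf.flox by the fitted value. The log2 fold change was -2.22 (SE 0.47, 95% interval -3.35 to -1.09, adjusted p = 0.0984 by edgeR's quasi-likelihood test). Only 0.539% of tested genes had a log2 fold change this low or lower. Without Maf.flox replicate 3 it was -2.51 with an adjusted p of 0.03, and by DESeq2 the adjusted p was 0.000605. Of 14 alternatives only these 2 called Cubn. The highest adjusted p was 0.353 by edgeR's quasi-likelihood test, without Maf.flox replicate 2. The log2 difference was -2.73 within males and -1.78 within females, each sex having 1 genotype with a single library. Cubn shares up to 207 exon bases with Gm13270, which lies opposite, and the sources do not say whether strand was used in counting. Gm13270 had 0 to 1 counts in Vil.Cre Maf.flox and 0 to 6 in Maf.flox libraries.

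Amn had 178, 238 and 145 CPM in Vil.Cre Maf.flox replicates 1, 2 and 3, against 315, 315 and 200 CPM in the Maf.flox replicates. The groups overlapped, because Vil.Cre Maf.flox replicate 2 exceeded Maf.flox replicate 3. Means were 187 ± 46.9 and 276.8 ± 66.3 CPM (SD, n = 3 each). A log2 fold change of -0.57 (SE 0.23, 95% interval -1.10 to -0.03) had an adjusted p of 0.277 in edgeR's quasi-likelihood fit.

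Per base of gene, Cubn stood at 0.0518, 0.108 and 0.147 of the Amn count in Vil.Cre Maf.flox replicates 1, 2 and 3, against 0.325, 0.355 and 0.242 in the Maf.flox replicates. The ratio did not overlap between groups and needs no scaling between libraries. Its log2 averaged -3.42 ± 0.774 in Vil.Cre Maf.flox and -1.72 ± 0.29 in Maf.flox (SD, n = 3 each), a difference of -1.69. The exact two-sided permutation test gave p = 0.1, the smallest p that 3 against 3 libraries allow, and 0.3 with Benjamini-Hochberg adjustment over 3 ratios. The RNA of both subunits thus stood further apart in Vil.Cre Maf.flox in every library, in a design that cannot pass 0.05.

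**Figure D2:**
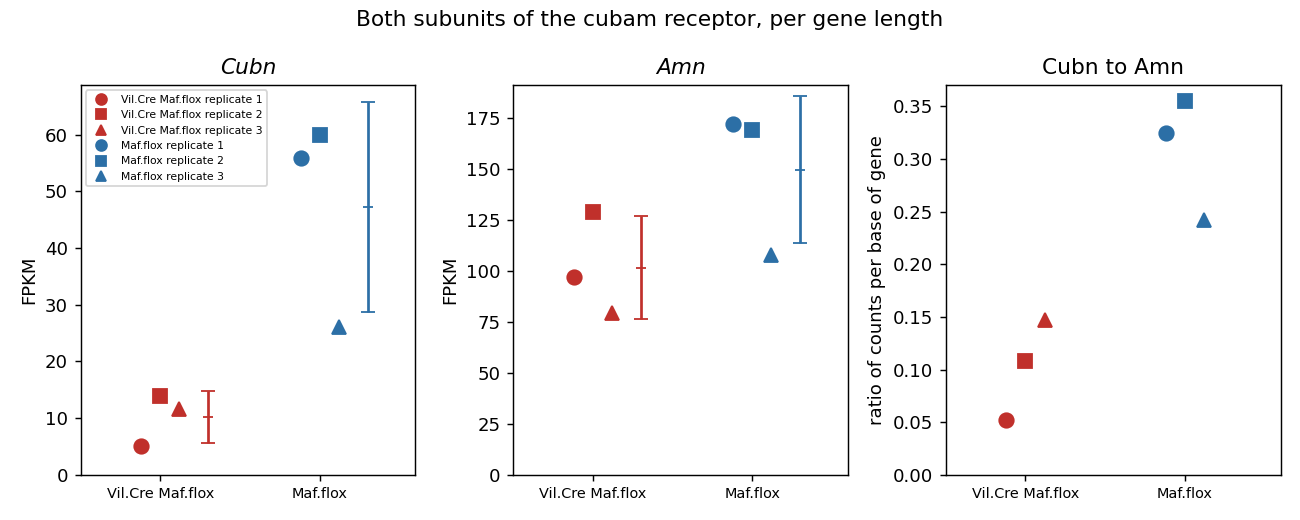
Deposited FPKM of Cubn and Amn and the ratio of their counts per base of gene, by library, with Vil.Cre Maf.flox in red left of Maf.flox in blue and mean ± SD bars beside the FPKM points. The ratio lies between 0.0518 and 0.147 in Vil.Cre Maf.flox and between 0.242 and 0.355 in Maf.flox libraries.

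Dab2 (ENSMUSG00000022150, chromosome 15, 6299788 to 6440712), the clathrin adaptor, had 7, 2 and 6 counts in the Vil.Cre Maf.flox libraries, against 10, 7 and 14 in the Maf.flox libraries. Summed counts were 15 and 31, or 0.25 CPM (exact 95% Poisson interval 0.14 to 0.412) and 0.484 CPM (0.329 to 0.687). The ratio of Vil.Cre Maf.flox to Maf.flox was 0.516, with an exact interval of 0.259 to 0.985 for counting error alone. Scaled levels did not overlap, but the nearest libraries, at 0.355 and 0.364 CPM, nearly met. Dab2 was therefore near the limit of detection beside its receptor genes in these cells. Macrophages can express Dab2, and their markers summed to 1.97 to 4.40 CPM in Vil.Cre Maf.flox and 3.15 to 3.70 CPM in Maf.flox over the 7 of 9 listed genes with a row. Cd68 was at 0.813 to 2.76 CPM in Vil.Cre Maf.flox and 1.41 to 2.04 CPM in Maf.flox, Lyz2 at 0.257 to 0.411 and 0.336 to 0.521 CPM, and Csf1r at 0.0856 to 0.235 and 0.0841 to 0.521 CPM. Mrc1 was at 0.763 to 2.28 CPM in Vil.Cre Maf.flox and 0.631 to 1.04 CPM in Maf.flox, and C1qb at 0 to 0.0507 and 0 to 0.104 CPM. C1qa was at 0 to 0.176 CPM in Vil.Cre Maf.flox and at 0 in all Maf.flox libraries, and C1qc at 0 to 0.254 and 0.042 to 0.104 CPM. The stromal list, with 7 of 8 genes in the table, summed to 8.12 to 10.9 CPM in Vil.Cre Maf.flox and 8.12 to 8.74 CPM in Maf.flox, nearly all from Pdgfrb. The part of such cells in the Dab2 counts was not tested.

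Tcn2 (ENSMUSG00000020432, chromosome 11, 3917192 to 3932159), the blood carrier of cobalamin, had 233, 278 and 197 CPM in Vil.Cre Maf.flox replicates 1, 2 and 3, against 484, 394 and 279 CPM in the Maf.flox replicates. The groups did not overlap, though the highest Vil.Cre Maf.flox library and the lowest Maf.flox library, at 278 and 279 CPM, nearly met. Cubn and Tcn2 were the 2 tested genes of the 8 without overlap, both lower in Vil.Cre Maf.flox, as were 10.5% of all genes, while 10.1% lay higher without overlap. Means of Tcn2 were 236 ± 40.7 and 385.5 ± 103 CPM (SD, n = 3 each). The log2 fold change was -0.71 (SE 0.21, 95% interval -1.19 to -0.23, adjusted p = 0.16 by edgeR's quasi-likelihood test). The adjusted p was 0.0233 by DESeq2 and 0.021 without Maf.flox replicate 3, where the log2 fold change was -0.89. Of 14 alternatives 3 called Tcn2, these and the replicate block. The highest adjusted p was 0.486 by edgeR's quasi-likelihood test, without Vil.Cre Maf.flox replicate 1.

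Slc46a1 (ENSMUSG00000020829, chromosome 11, 78465697 to 78472059) encodes the proton-coupled folate transporter, the main route of folate into enterocytes. It had 16.1, 23.5 and 16.5 CPM in the Vil.Cre Maf.flox libraries, against 14.5, 16.2 and 15.5 CPM in the Maf.flox libraries. The groups overlapped, and Vil.Cre Maf.flox replicate 2 stood above the other 5. Slc46a1 was the only one of the 8 with a log2 fold change above 0, at 0.28 (SE 0.17, 95% interval -0.10 to 0.66, adjusted p = 0.452 by edgeR's quasi-likelihood test).

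Slc19a1 (ENSMUSG00000001436, chromosome 10, 77032241 to 77061002), the reduced folate carrier, had 24.1, 19 and 24 CPM in Vil.Cre Maf.flox and 18.8, 23.6 and 30.7 CPM in Maf.flox libraries. The groups overlapped over most of their range. Its log2 fold change was -0.12 (SE 0.19, 95% interval -0.55 to 0.30), with an adjusted p of 0.804 in edgeR's quasi-likelihood fit. It turned to 0.08 without Maf.flox replicate 3 and to 0.01 with sex as a term. The ratio of Slc46a1 to Slc19a1 per base of gene had a mean log2 of 0.32 ± 0.502 in Vil.Cre Maf.flox and -0.04 ± 0.318 in Maf.flox (SD, n = 3 each), a difference of 0.36 with an exact two-sided permutation p of 0.5.

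Slc19a2 (ENSMUSG00000040918, chromosome 1, 164249046 to 164265385), a thiamine transporter, was the steadiest of the genes, with 9.69, 9.63 and 11.1 CPM in Vil.Cre Maf.flox and 11, 12 and 11.7 CPM in Maf.flox libraries. Its coefficient of variation was 8.11% and 4.49%, where that of Cubn was 45.5% and 39.1%. The groups met at Vil.Cre Maf.flox replicate 3 and Maf.flox replicate 1. The log2 fold change was -0.19 (SE 0.14, 95% interval -0.51 to 0.13, adjusted p = 0.558 by edgeR's quasi-likelihood test).

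Slc19a3 (ENSMUSG00000038496, chromosome 1, 83012523 to 83038448), the other thiamine transporter, had 8, 2 and 1 counts in the Vil.Cre Maf.flox libraries and 4, 4 and 0 in the Maf.flox libraries. A count of 0 in Maf.flox replicate 3 allows up to 0.142 CPM. Summed counts of 11 and 8 gave a ratio of 1.47 with an exact Poisson interval of 0.537 to 4.20, so no difference was detectable at this depth. Per base of gene Slc19a3 reached at most 0.0524 of Slc19a2 in Vil.Cre Maf.flox and 0.0218 in Maf.flox libraries. The log2 ratio, with 0.5 added to each count, differed by 0.84 with an exact two-sided permutation p of 0.7.

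Slc5a6 (ENSMUSG00000006641, chromosome 5, 31036036 to 31048924) encodes the sodium-dependent transporter of biotin, pantothenate and lipoate. It had 29, 41.5 and 28.8 CPM in Vil.Cre Maf.flox replicates 1, 2 and 3, against 66.7, 74.3 and 32.5 CPM in the Maf.flox replicates. Maf.flox replicate 3 lay among the Vil.Cre Maf.flox libraries, and the other controls lay above them all. A log2 fold change of -0.81 (SE 0.31, 95% interval -1.55 to -0.07) had an adjusted p of 0.268 in edgeR's quasi-likelihood fit. Without Maf.flox replicate 3 it was -1.09, with an adjusted p of 0.0108, the 1 of 14 alternatives that called Slc5a6. The highest adjusted p was 0.659 by edgeR's quasi-likelihood test, without Maf.flox replicate 2. Slc5a6 shares up to 242 bases of an exon with Atraid on the other strand, and the sources do not say how reads there were counted. Atraid had 821 to 1021 counts in Vil.Cre Maf.flox and 960 to 1217 in Maf.flox libraries, with a log2 fold change of -0.12.

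Slc23a1 (ENSMUSG00000024354, chromosome 18, 35614604 to 35627244), a sodium-dependent ascorbate transporter, had 4.16, 3.88 and 5.09 CPM in Vil.Cre Maf.flox and 4.71, 16.4 and 9.2 CPM in Maf.flox libraries. The groups overlapped at Maf.flox replicate 1, and the controls ranged most widely of the 8 genes, with a coefficient of variation of 58.5%. The log2 fold change was -1.20 (SE 0.42, 95% interval -2.16 to -0.23, adjusted p = 0.217 by edgeR's quasi-likelihood test). The adjusted p was 0.0378 by DESeq2, with a log2 fold change of -1.19. Within males the log2 difference was -0.225 and within females -1.26. Maf.flox replicate 1 is the 1 control male, so sex and library cannot be told apart there, and the interaction of sex and genotype had an unadjusted p of 0.0819 and an adjusted p of 1. Without Maf.flox replicate 2 the log2 fold change was -0.65.

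**Figure D3:**
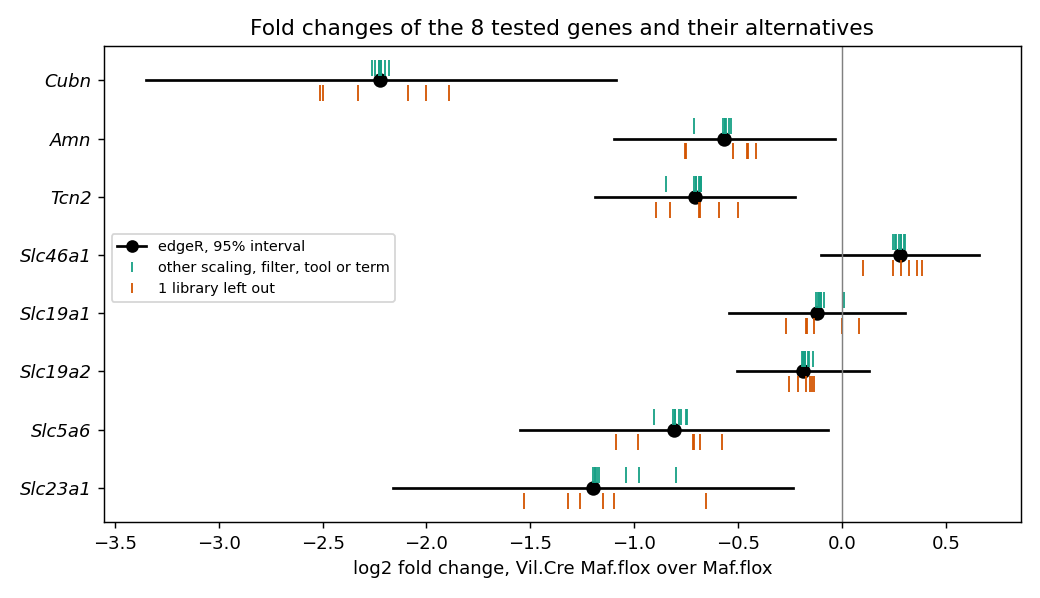
Log2 fold change of Vil.Cre Maf.flox over Maf.flox for the 8 tested genes, with black points and 95% intervals from edgeR, green ticks for other scaling, filters, tools or terms and orange ticks for 1 library left out. Cubn runs from -2.51 to -1.89 over its 14 alternatives, and Slc19a1 is the gene whose ticks cross 0.

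With Maf.flox replicate 3 left out, 3 of the 8 were called lower, Cubn, Slc5a6 and Tcn2, against 4.11% of all genes. With the replicate number as a block, 2 were called lower, Amn with an adjusted p of 0.0355 and Tcn2 with 0.0301, by edgeR's quasi-likelihood test, against 2.24% of all genes. The block was the 1 of 14 alternatives that called Amn, and with it Cubn had an adjusted p of 0.263 by the same test.

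The order of levels was compared in the deposited FPKM, which divide by gene length. In Vil.Cre Maf.flox libraries Tcn2 led at 109 ± 18.3 FPKM and Amn followed at 102 ± 25.1 FPKM, within 1 SD of each other. Cubn at 10.2 ± 4.62, Slc5a6 at 8.31 ± 1.79, Slc46a1 at 6.09 ± 1.34 and Slc19a1 at 4.83 ± 0.642 FPKM came next, and the mean ± SD range of each overlapped that of its neighbour. Slc19a2 at 2.65 ± 0.224 and Slc23a1 at 1.36 ± 0.202 FPKM were lower (SD, n = 3 each). In Maf.flox libraries Tcn2 was at 176 ± 48.2, Amn at 150 ± 36.2, Cubn at 47.3 ± 18.5 and Slc5a6 at 14.4 ± 5.56 FPKM, and of these only the mean ± SD ranges of Tcn2 and Amn overlapped. Slc19a1 at 5.22 ± 1.26, Slc46a1 at 4.98 ± 0.227, Slc23a1 at 3.1 ± 1.79 and Slc19a2 at 3 ± 0.106 FPKM followed, each range again overlapping its neighbour's. Dab2 and Slc19a3 reached at most 0.0898 and 0.133 FPKM in any library. Cubn thus ranked next after Tcn2 and Amn in both genotypes, close to Slc5a6 in Vil.Cre Maf.flox and well above it in Maf.flox.

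The 9 absorptive enterocyte markers all had a log2 fold change below 0, as did 7 of the 8 tested genes. Of the 9 only Anpep, a brush border aminopeptidase, was called lower (adjusted p = 0.0133 by edgeR's quasi-likelihood test). Sis, the sucrase-isomaltase gene, overlapped, at 1530 to 2740 CPM in Vil.Cre Maf.flox and 1750 to 2940 CPM in Maf.flox. The summed level of the 9 was 6547, 8686 and 5042 CPM in Vil.Cre Maf.flox replicates 1, 2 and 3, against 22920, 21750 and 10380 CPM in the Maf.flox replicates. Maf.flox replicate 3 was thus the lowest control in this list too. Epithelial markers summed to 15720 to 20710 CPM in Vil.Cre Maf.flox and 16510 to 19320 CPM in Maf.flox. The part of enterocyte content in the values of the 8 genes was not tested.

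Because cubilin is an ileal receptor and Slc46a1 is best known from the proximal intestine, regional markers were set beside them. The 7 distal markers summed to 7055 to 13960 CPM in Vil.Cre Maf.flox and 6889 to 12020 CPM in Maf.flox, with a median log2 fold change of -0.18 and no call. Most of the distal sum was Fabp6, the ileal bile acid binding protein. It averaged 8210 CPM in Vil.Cre Maf.flox and 6880 CPM in Maf.flox, with a log2 fold change of 0.25. The other 6 were below 0, with Slc10a2, the ileal bile acid transporter, at -0.47. Neither Fabp6 nor Slc10a2 was called by edgeR's quasi-likelihood test (adjusted p = 0.751 and 0.687). The 7 proximal markers summed to 142.2 to 179 CPM in Vil.Cre Maf.flox and 424.2 to 783.6 CPM in Maf.flox. Most of that sum in Maf.flox was lactase, Lct, at 314 to 628 CPM, against 14.4 to 15.2 CPM in Vil.Cre Maf.flox, where it was called lower (adjusted p = 0.00298 by edgeR's quasi-likelihood test). Onecut2 and Pdx1 were too low to be tested. Among the 5 proximal markers tested, 4 were lower in Vil.Cre Maf.flox, and the list median was -0.98 on the log2 scale. Fabp1, which is also in the enterocyte list, stood at -1.46 and Cybrd1 at -0.98 (adjusted p = 0.231 and 0.456 by edgeR's quasi-likelihood test). Gata4, a transcription factor of the proximal intestine, had a log2 fold change of -0.10. Slc40a1, the iron exporter ferroportin, went the other way without overlap, at 57.3 to 93.7 CPM in Vil.Cre Maf.flox and 29.2 to 41.5 CPM in Maf.flox, with a log2 fold change of 1.04 (adjusted p = 0.0736 by edgeR's quasi-likelihood test).

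**Figure D4:**
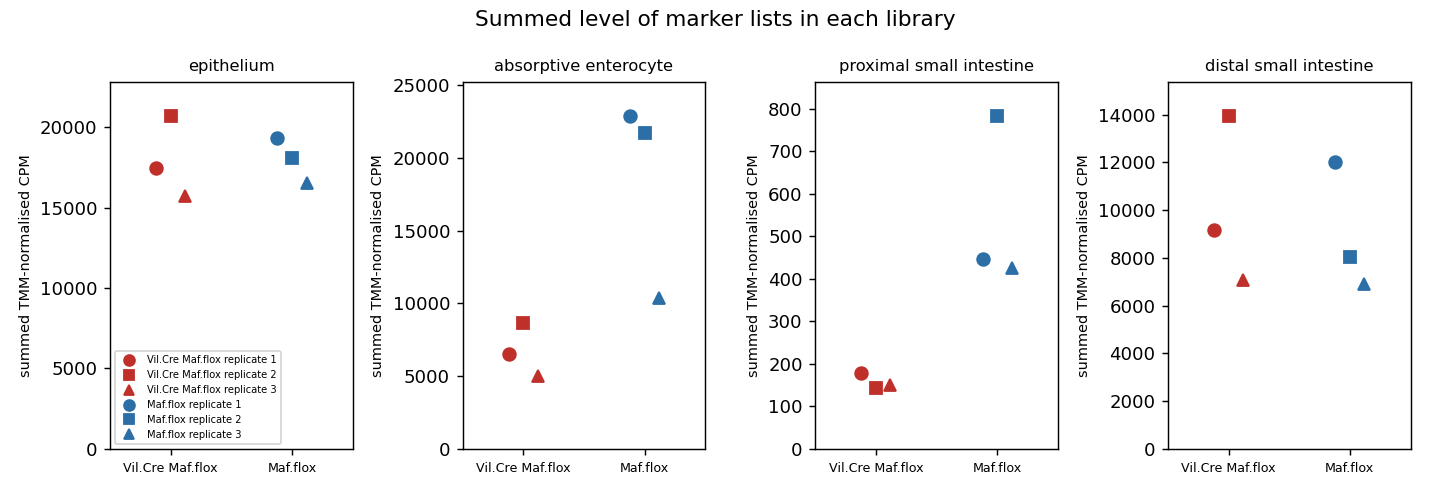
Summed TMM-normalised CPM of 4 marker lists in each library, Vil.Cre Maf.flox in red left of Maf.flox in blue, each axis starting at 0. Absorptive enterocyte sums lie between 5042 and 8686 in Vil.Cre Maf.flox and between 10380 and 22920 in Maf.flox. Epithelial sums overlap, as do distal sums, which are mostly Fabp6.

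The genes most like Cubn across the 6 libraries, by the smallest root mean square difference in centred log2 CPM among 8879 genes of at least 10 CPM on average, were Cyp2d26 at 0.161, Mme at 0.192, Clec2e at 0.26, Abcc2 at 0.334 and Bmp1 at 0.335. Mme encodes the membrane peptidase neprilysin, Abcc2 an apical efflux pump and Bmp1 a procollagen protease. Their log2 fold changes were -2.17, -2.58, -2.39, -1.84 and -2.85, and Clec2e was called lower (adjusted p = 0.0276 by edgeR's quasi-likelihood test). Likeness was measured over both groups, so log2 fold changes near that of Cubn follow from the choice of these genes. Slc5a6 came at place 176 in this order with 0.846, Tcn2 at 281 with 0.929 and Amn at 342 with 0.972. Slc19a2 followed at 1951, Slc19a1 at 5739 and Slc46a1 at 6654. The measure is not scaled for size, so a gene with a smaller fold change than Cubn lies farther from it.

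Other genes of the same vitamin pathways were taken from 7 lists with 101 distinct tested genes, Tcn2 among them. By edgeR's quasi-likelihood test 0 of them were called, 10 had an unadjusted p under 0.05 and were lower in Vil.Cre Maf.flox, and 7 had one and were higher, beside 9.25% and 7.11% of all genes. DESeq2 called 6 of the 101, namely Abcc2, Mccc1, Mmab, Slc52a2, Slc52a3 and Tcn2, a share near the 5.64% of all genes that it called. Limma-voom called 0.

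Of the endocytic partners of cubilin, 18 were tested, and 13 had a log2 fold change above 0, with a median of 0.08. Those above 0 include 4 of the 5 AP-2 clathrin adaptor genes and the endosomal genes Rab7 and Rab11a. These values were small, from 0.06 (SE 0.11) for Ap2b1 to 0.17 (SE 0.12) for Ap2s1. The 5 below 0 include the endosomal genes Ehd1 at -0.42 (SE 0.18) and Rab5a at -0.05. None of the 18 was called in either direction. Clcn5, an endosomal chloride-proton exchanger, had 40.2, 40.2 and 37.9 CPM in Vil.Cre Maf.flox and 62.1, 58.7 and 43.6 CPM in Maf.flox libraries, without overlap. Its log2 fold change was -0.48, with an adjusted p of 0.146. Gipc1, an adaptor for endocytic receptors, stood at 0.35, and Fcgrt, the neonatal Fc receptor, at 0.36 (adjusted p = 0.246 and 0.214 by edgeR's quasi-likelihood test). Megalin (Lrp2), the partner of cubam in the kidney, was on the list but had no single row under that symbol, so it was not tested.

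Intracellular cobalamin genes had a median of -0.01 over 15 tested, with 8 below 0 and 7 above. Mmab, which makes adenosylcobalamin, had 27.3, 25.4 and 22.5 CPM in Vil.Cre Maf.flox and 18.8, 18.2 and 17.8 CPM in Maf.flox libraries, all Vil.Cre Maf.flox libraries being higher. Its log2 fold change was 0.45 (SE 0.12) and that of Abcc1, an efflux pump that exports cobalamin, 0.44 (adjusted p = 0.113 and 0.201 by edgeR's quasi-likelihood test). Cd320, the receptor for transcobalamin, and Lmbrd1, a lysosomal cobalamin exporter, were at -0.09 and -0.19.

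Folate metabolism genes had a median of 0.06 over 21 tested. Abcc2, which also exports folates, was the lowest, with 35, 57.6 and 59.7 CPM in Vil.Cre Maf.flox replicates 1, 2 and 3 and 188, 254.5 and 104.3 CPM in the Maf.flox replicates. Its log2 fold change of -1.84 (SE 0.357) had an adjusted p of 0.0851. The mitochondrial serine hydroxymethyltransferase gene Shmt2 stood at 0.38 (adjusted p = 0.335 by edgeR's quasi-likelihood test).

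Among 13 tested genes of thiamine, riboflavin and pyridoxine handling the median was -0.18, and 9 were below 0. The riboflavin transporter genes led this list. Slc52a3 had 127.9, 116.2 and 83.2 CPM in Vil.Cre Maf.flox and 266.1, 235.7 and 141.9 CPM in Maf.flox libraries, and Slc52a2 had 60.05, 75.2 and 63.5 CPM and 140, 109.9 and 82 CPM. Neither overlapped between groups. Their log2 fold changes were -0.98 (SE 0.253) and -0.74 (SE 0.189), with adjusted p-values of 0.13 and 0.119 by edgeR's quasi-likelihood test. Pdxk, which phosphorylates vitamers of pyridoxine, stood at -0.41. Slc44a4, a transporter of thiamine pyrophosphate best known from the colon, was at 0.01.

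Biotin and pantothenate genes had a median of 0.04 over 17 tested. Mccc1, a biotin-bearing carboxylase subunit, was close among replicates, with 27.2, 25.8 and 26.6 CPM in Vil.Cre Maf.flox and 40.1, 36.6 and 38.2 CPM in Maf.flox libraries. It stood at -0.53 on the log2 scale (SE 0.0942, adjusted p = 0.0546 by edgeR's quasi-likelihood test). Pcca, another biotin-bearing subunit, stood at 0.25 and Ppcs, of coenzyme A synthesis, at -0.24. Ascorbate and niacin lists had medians of -0.05 over 8 and -0.02 over 9 tested genes. Slc2a1, a glucose transporter that also carries dehydroascorbate, was at 0.35, with Slc23a3 at -0.48 and Rgn at -0.45. In the niacin list Nampt, of NAD salvage, was at 0.27, Naprt, which uses nicotinic acid, at -0.33 and Nmnat3 at -0.18. None of these 8 passed the test.

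**Figure D5:**
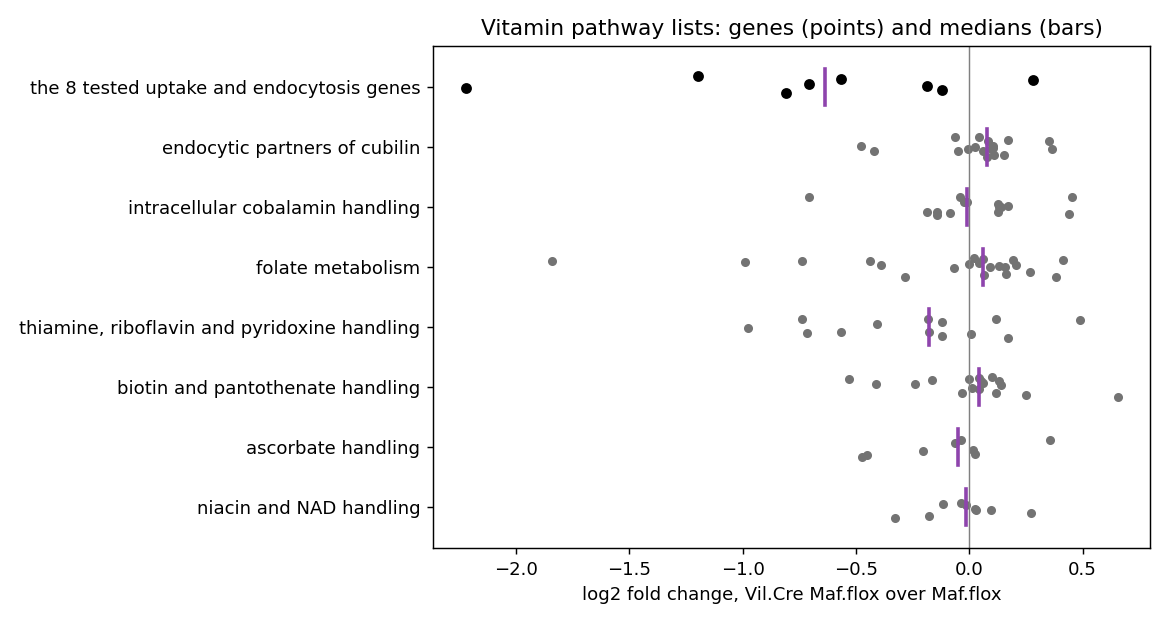
Log2 fold change of Vil.Cre Maf.flox over Maf.flox for each tested gene (points) of the 8 uptake and endocytosis genes and of 7 vitamin pathway lists, with purple bars at the medians. Medians of the 7 lists lie between -0.18 and 0.08 and that of the 8 genes at -0.64; no point was called over all genes.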

How the data were processed

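In the 6 libraries the authors deposited raw counts per gene, all whole. The FPKM deposited by the authors equal counts divided by gene length and 1 library size. They were used for levels between genes and not tested. The submitters' processing notes name GRCm38 (mm10), featureCounts 1.5.0-p3, HISAT2 2.0.5 and DESeq2. Strand use in counting is not given in the sources used here. Per the labels' protocols, mRNA was captured on poly-T beads.

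The main test was that of edgeR 4.0.16, run under R 4.3.3, with filterByExpr (least count 10), TMM scaling, the robust quasi-likelihood F test with genotype as the only term, and Benjamini-Hochberg adjustment over 13740 genes at 0.05. SE is the log2 fold change divided by the root of F. Ratios of genes were tested by exact permutation. Alternatives were RLE and upper quartile scaling, no filter, at least 50 counts in 3 libraries, DESeq2 1.42.0, limma-voom (limma 3.58.1), a replicate block, a sex term and each library left out. The fits were tested on simulated counts. Positions of all 10 genes were the same as in GENCODE M21. The 10 genes and all lists were chosen with earlier results of these data known. Pathway genes are named by the 3 smallest p per list, of which 1 is not reported here, and others in those paragraphs were chosen after their values were seen; likeness to Cubn takes the 5 closest genes.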

Additional observations from a re-analysis of the deposited data

How the results depend on the processing

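Scaling by RLE or upper quartile and the stricter filter left 0 of the 8 genes called and the count over all genes within 1.5 times of 75 (26 higher, 49 lower). Without a filter 0 of the 8 and 365 of all genes were called (151 higher, 214 lower), by DESeq2 3 and 760 (283, 477), by limma-voom 0 and 34 (13, 21), and with sex as a term 0 and 38 (15, 23). Leaving out 1 library gave 0 to 3 of the 8, and 8 to 701 of all genes (4 to 124 higher, 2 to 577 lower). The 3 and the 701 both came without Maf.flox replicate 3, and the cause was not tested. A replicate block gave 2 of the 8 and 440 of all genes (132 higher, 308 lower). The labels do not say that replicate numbers pair libraries, so the main test used no pairing. Deviations from the group means correlated at 0.092, -0.026 and 0.27 between libraries of the same number. Vil.Cre Maf.flox replicates 1 and 3 correlated best with their own number, and replicate 2 did not. The log2 fold change of Slc19a1, -0.12, was 0.00841 with the sex term, and ran from -0.269 to 0.0824 with 1 library left out, turning sign without Maf.flox replicate 3. The other 7 genes kept their sign in 14 alternatives each. The ratio of Cubn to Amn, a log2 difference of -1.69, ran from -2.02 to -1.27 with 1 library left out, that of Slc46a1 to Slc19a1 from 0.07 to 0.52, and that of Slc19a3 to Slc19a2 from -0.22 to 1.56. List medians moved by less than the replicate spread, but the sign turned in 2, 8 and 4 of 14 alternatives for folate, cobalamin and niacin. Dab2 and Slc19a3, at 14 counts or fewer per library, did not pass the filter of the main test. Both entered the fit without a filter, but their values there are not given.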
